A study of Mus musculus with 4 samples.

Results

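The genes described here make, clear, carry or sense retinoic acid: the retinaldehyde dehydrogenases Aldh1a1, Aldh1a2 and Aldh1a3, the retinal reductase Dhrs3, the degrading enzyme Cyp26a1, the binding proteins Crabp1 and Crabp2, and the nuclear receptors Rara, Rarb and Rarg. They were taken by symbol from a list drawn up with earlier results of these data known, and all 10 of the 10 listed genes were found among 20701 gene symbols. RNA-Seq was performed on cardiac progenitor cells obtained from mouse embryonic stem cells, and 2 control libraries were compared with 2 libraries labelled Isl1_KO. The question behind the comparison is what the loss of Isl1, a transcription factor gene active in second heart field progenitors, does to gene expression. Every line was E14 Tg(Nkx2-5-EmGFP), an ES cell line that expresses a green fluorescent protein under control of Nkx2-5, a cardiac transcription factor gene. The control lines had no further change stated, and the Isl1_KO lines were Isl1-/- clones made by CRISPR/Cas9 editing with a pair of guides. Cells were kept on mitomycin-treated mouse embryonic fibroblasts, differentiated, and sorted for the reporter at day 5. The paper describes both hanging drops and a directed protocol with growth factors. It mentions sorting for RNA extraction under the directed protocol, and which of them gave these libraries was not settled here. Each library came from a different clone, so clone and genotype cannot be told apart beyond the 2 clones per group. A knockdown is named in the series' design text, but titles, genotype and methods give a knockout, and the titles were followed.

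Retinoic acid is made from vitamin A in successive oxidations, first from retinol to retinaldehyde and then, by the Aldh1a enzymes, to the acid. Dhrs3 drives the first step backwards, and Cyp26 enzymes inactivate the acid, so that tissues set their own exposure. The acid binds receptors of the RAR family, which sit with RXR partners on DNA elements near their target genes. In the embryo this signal comes mainly from Aldh1a2 in mesoderm, sets the posterior border of the heart field and is needed for the atria and the outflow tract. Rarb, Cyp26a1, Dhrs3 and Crabp2 are themselves well known to respond to it.

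The DNA elements are shown first because Rarb and Cyp26a1 each carry one close to the start of transcription, and because these genes differed in what they did in the Isl1_KO clones. The best known form is a direct repeat of a half-site of 6 bases with 5 bases between (DR5). The half-site was AGGTCA, with the variants AGTTCA and GGGTCA and also GGTTCA allowed, on either strand, in RefSeq promoter windows of build GRCm38.p6 from 250 bases before to 50 bases after each start. Of the members, 8 had windows, 15 in all. Aldh1a3 and Crabp2 are named only. A DR5 was found in 2 of the 8 genes, and 31 of all 27025 symbols (0.115%) had such a match. The related repeats with 1 and 2 bases between were found in 0 of the 15 windows, against 0.222% and 0.268% of all windows. Printed below are the 100 bases before the start, on the strand of the gene, with the DR5 in capitals (Rarb chr14:16575477-16575576, minus strand; Cyp26a1 chr19:37697708-37697807, plus strand; both just upstream of the first exon).
Rarb: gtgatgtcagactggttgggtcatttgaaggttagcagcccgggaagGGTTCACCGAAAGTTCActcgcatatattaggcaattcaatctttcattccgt
Cyp26a1: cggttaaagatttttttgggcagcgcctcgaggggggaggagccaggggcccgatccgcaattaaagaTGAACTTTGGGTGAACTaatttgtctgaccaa
The Rarb element lay 53 to 37 bases before the start (chr14:16575513-16575529) and read in the direction of the gene. The Cyp26a1 element lay 32 to 16 bases before the start (chr19:37697776-37697792) and read on the opposite strand, as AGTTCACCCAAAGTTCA. Counted from 1 at the 5′ end of the Rarb element, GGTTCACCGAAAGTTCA, the elements were alike at 15 of 17 positions and differed by G1A and G9C. A match is a description of these letters and does not show that a receptor was bound.

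The libraries held between 8821517 and 13186109 counts over 1 transcript entry per gene, the deepest being Isl1_KO 1. Isl1 itself, the targeted gene, was counted 309 and 326 times in the control libraries, and 17 and 24 times in Isl1_KO, so the levels followed the labels. All 6 cardiac progenitor markers listed (Nkx2-5, Isl1, Tbx5, Gata4, Mef2c and Hand2) were found in every library. Their summed level was 496 and 499 counts scaled by library size (CPM) in control and 140 and 138 CPM in Isl1_KO. Of the 6, 5 fell (edgeR adjusted p under 0.05), the edited Isl1 itself among them, beside 1.94% of all tested genes. The cardiomyocyte markers summed to between 1303 and 1380 CPM in control and between 35.0 and 50.04 CPM in Isl1_KO. The control clones differed little more than counting error (chi-square per degree of freedom 1.13), whereas the Isl1_KO clones differed far more (17.7).

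Of the 10 genes, 9 passed the filter on low counts. Rarb and Crabp2 fell, 0 rose and 7 did not pass the test (edgeR quasi-likelihood, Benjamini-Hochberg adjusted p under 0.05), beside 2.45% of all 12715 tested genes called, 1.94% lower and 0.503% higher. At an unadjusted p under 0.05 in edgeR, 3 were lower (Rarb, Crabp2 and Aldh1a2) and 0 higher, beside 23.3% of all genes. The median log2 fold change of the 9 genes was -0.37, beside -0.0027 over all tested genes. In 5 of the 9 (Aldh1a2, Crabp1, Crabp2, Rara and Rarb) both Isl1_KO libraries lay below both control libraries in CPM, a pattern found in 29.0% of all genes, and in 0 of the 9 they lay above, against 29.1% of all genes. The groups did not overlap in either direction in 58.1% of all genes. The summed markers of feeder cells and of blood were also lower. The feeder fibroblast list (Col1a1, Col1a2, Thy1 and Postn) summed to 1458 and 1447 CPM in control and 928 and 441 CPM in Isl1_KO, with 0 of 4 called and Thy1 overlapping between groups. The blood list (Gata1, Hbb-y, Hba-x and Klf1) summed to 130 and 128 CPM against 63.5 and 24.8 CPM, with 0 of 4 called and Gata1 the other way, at 9.08 and 8.10 CPM against 14.5 and 16.4 CPM. Their part in the values of Rarb and Crabp2 was not tested. In the sorted bulk RNA, fewer cells of a type and less RNA per cell cannot be told apart. With a single transcript per symbol, 5 of the 10 genes had further RefSeq entries that share reads, and none of the 10 had an exon that overlapped that of another annotated gene.

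**Figure D1:**
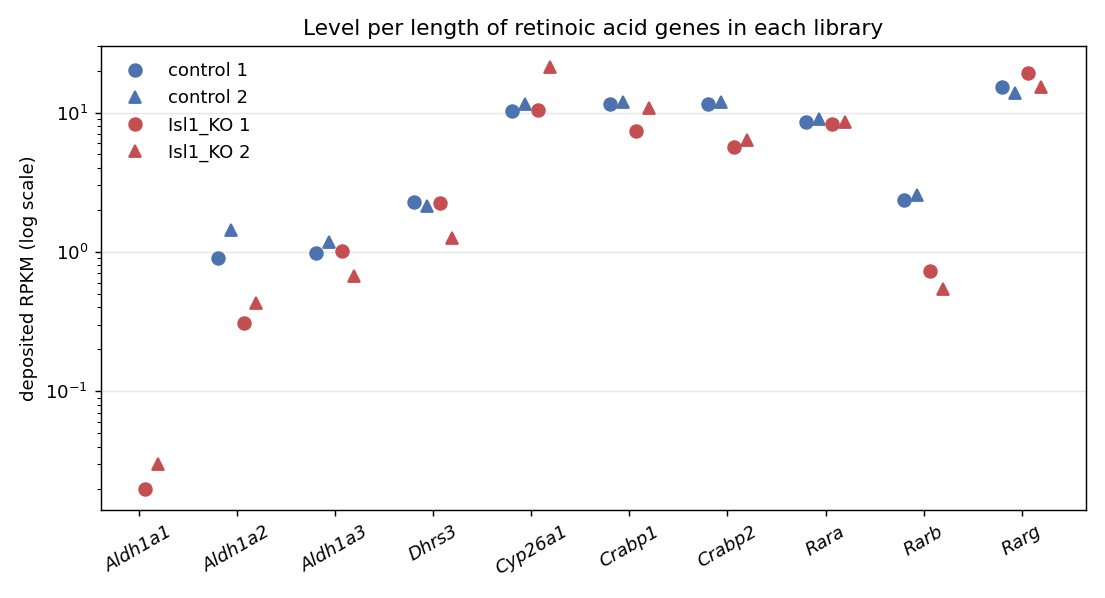
Deposited RPKM (reads per kilobase and library size, log axis) of the 10 genes in each library, with control in blue, Isl1_KO in red, circles for replicate 1 and triangles for replicate 2. Aldh1a1 was listed at 0 in both control libraries and has no blue point; Rarb and Crabp2 stand apart between groups, and Cyp26a1 stands high in Isl1_KO 2 alone, at 21.2 RPKM.

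Among the synthesizing enzymes, Aldh1a2 was the gene with the larger difference and did not pass the test. Aldh1a2 (chromosome 9, 71063596 to 71144050), the main source of retinoic acid in embryonic mesoderm, was counted 32 and 52 times in the control libraries, and 16 and 19 times in Isl1_KO. Scaled by library size these were 3.63 and 5.69 CPM against 1.23 and 1.65 CPM, so the groups did not overlap, but the control libraries also differed from each other. The log2 fold change was -1.70 (SE 0.349, unadjusted 95% interval -2.58 to -0.81), with an edgeR adjusted p of 0.0813. The methods use a looser rule in DESeq2, namely a log2 fold change beyond 0.58 in size with an unadjusted p under 0.05. Under that rule Aldh1a2 was lower (unadjusted p 0.00440, DESeq2 adjusted p 0.0786), as were Rarb and Crabp2, making 3 of the 10 genes. The rule took 5.89% of 16855 genes, and 4.57% as lower.

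Aldh1a3 (chromosome 7, 73535778 to 73572403), which makes retinoic acid chiefly in eye and nose, was at 5.90 and 7.11 CPM in control and 6.15 and 3.90 CPM in Isl1_KO. The libraries overlapped, with Isl1_KO 1 inside the control range and Isl1_KO 2 below it. Its log2 fold change was -0.37 (95% interval -1.09 to 0.35, edgeR adjusted p 0.483). Aldh1a1 (chromosome 19, 20676451 to 20717952), found in the retina and liver, had 0 counts in both control libraries and 1 count in each Isl1_KO library. These lie under a floor of 3 counts, which corresponds to 0.231 to 0.341 CPM in these libraries, and no fold was computed. Summed on the per-length scale, the 3 dehydrogenases were at 1.89 and 2.61 RPKM in control and 1.35 and 1.13 RPKM in Isl1_KO. Aldh1a3 was the larger part of that sum in control 1 and in both Isl1_KO libraries, and Aldh1a2 in control 2.

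Markers of tissues known to express Aldh1a2 were examined beside it. The list for epicardium and posterior heart field (Tbx18, Wt1, Tcf21, Upk3b, Sema3d and Osr1) summed to 18.0 and 13.8 CPM in control and 11.5 and 7.72 CPM in Isl1_KO. Of its 6 genes 5 were tested and 0 were called, and Tbx18 had 0 counts in Isl1_KO 2. Tcf21 went from 7.27 and 6.24 CPM in control to 2.998 and 0.868 CPM in Isl1_KO, while Sema3d lay the other way, at 2.27 and 2.19 CPM against 3.152 and 4.16 CPM. The markers of paraxial mesoderm (Meox1, Tbx6, Tcf15, Msgn1 and Foxc2) summed to 11.5 and 13.02 CPM against 8.22 and 6.59 CPM, with 0 of 3 tested genes called. Foxc2 alone carried that difference, at 9.19 and 10.1 CPM against 4.84 and 3.04 CPM, and Meox1 was at 1.02 and 0.766 CPM against 1.54 and 1.21 CPM. The part of either cell type in the Aldh1a2 values was not tested.

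Neither enzyme that limits retinoic acid passed the test, and for both the Isl1_KO clones disagreed. Cyp26a1 (chromosome 19, 37772298 to 37776018), a cytochrome P450 that inactivates retinoic acid, was counted 286 and 331 times in the control libraries, and 429 and 740 times in Isl1_KO. In CPM it was at 32.5 and 36.2 in control, at 33.0 in Isl1_KO 1 and at 64.2 in Isl1_KO 2. Isl1_KO 1 thus lay inside the control range and Isl1_KO 2 well above it. The log2 fold change was 0.50 (SE 0.319, 95% interval -0.31 to 1.31, edgeR adjusted p 0.403), and it was -0.059 without Isl1_KO 2 and 0.90 without Isl1_KO 1. The pluripotency markers (Pou5f1, Nanog, Zfp42 and Esrrb) summed to 9.65 and 11.1 CPM in control, 10.5 CPM in Isl1_KO 1 and 22.8 CPM in Isl1_KO 2, with 0 of 3 tested genes called. Pou5f1 made up most of that sum in Isl1_KO 2, at 14.7 CPM, whereas Esrrb, at 2.17 CPM there, lay within its control range of 1.82 to 2.30 CPM. Their part in the Cyp26a1 values was not tested.

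Dhrs3 (chromosome 4, 144482730 to 144518112), which returns retinaldehyde to retinol, showed the opposite order of the Isl1_KO clones. It was at 6.92 and 6.46 CPM in control, at 6.76 CPM in Isl1_KO 1 and at 3.64 CPM in Isl1_KO 2. Isl1_KO 1 again lay within the control range. The log2 fold change was -0.35 (95% interval -1.18 to 0.48, edgeR adjusted p 0.560), and it was 0.018 without Isl1_KO 2 and -0.87 without Isl1_KO 1. Counted on the second RefSeq entry of the gene, which shares most of these reads, it was -0.17.

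**Figure D2:**
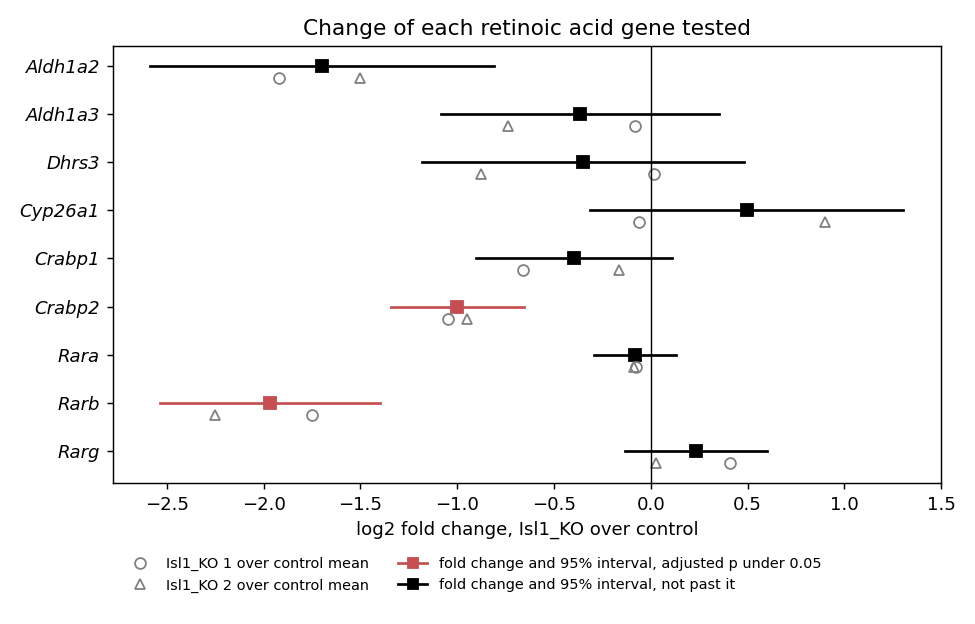
Log2 fold change of the 9 tested genes, Isl1_KO over control, as squares with unadjusted 95% intervals, in red where the adjusted p was under 0.05; open grey circles and triangles give Isl1_KO 1 and Isl1_KO 2 over the control mean. For Rarb and Crabp2 both clones lie near the fitted value, whereas for Cyp26a1 and Dhrs3 the circle lies at the zero line and the triangle away from it.

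Crabp2 fell and Crabp1 did not pass the test. Crabp2 (chromosome 3, 87752588 to 87757298), which carries retinoic acid to its nuclear receptors, had 161 and 173 counts in control, while the Isl1_KO libraries, although deeper, held 117 and 111. In CPM it was 18.3 and 18.9 CPM in control and 8.99 and 9.63 in Isl1_KO, or 18.6 ± 0.462 against 9.31 ± 0.450 CPM (SD, n = 2 each). The gap between groups was many times the spread within either pair. The log2 fold change was -0.999 (SE 0.136, 95% interval -1.34 to -0.65, edgeR adjusted p 0.0359), which is 2.00-fold lower. Over the alternatives that kept all libraries the adjusted p ranged from 0.0102 to 0.0441.

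Crabp1 (chromosome 9, 54612555 to 54620917), which binds retinoic acid in the cytoplasm, was at 16.3 and 16.7 CPM in control and 10.5 and 14.7 CPM in Isl1_KO. Both Isl1_KO libraries lay below control, Isl1_KO 2 only slightly. The log2 fold change was -0.40 (95% interval -0.90 to 0.11, edgeR adjusted p 0.304). Per length the binding proteins were nearly equal in control, where Crabp2 made up 49.9% and 50.2% of their summed RPKM. Its share was 43.4% in Isl1_KO 1 and 36.8% in Isl1_KO 2. The sum itself was 23.1 and 23.8 RPKM in control against 13.1 and 17.1 RPKM in Isl1_KO.

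**Figure D3:**
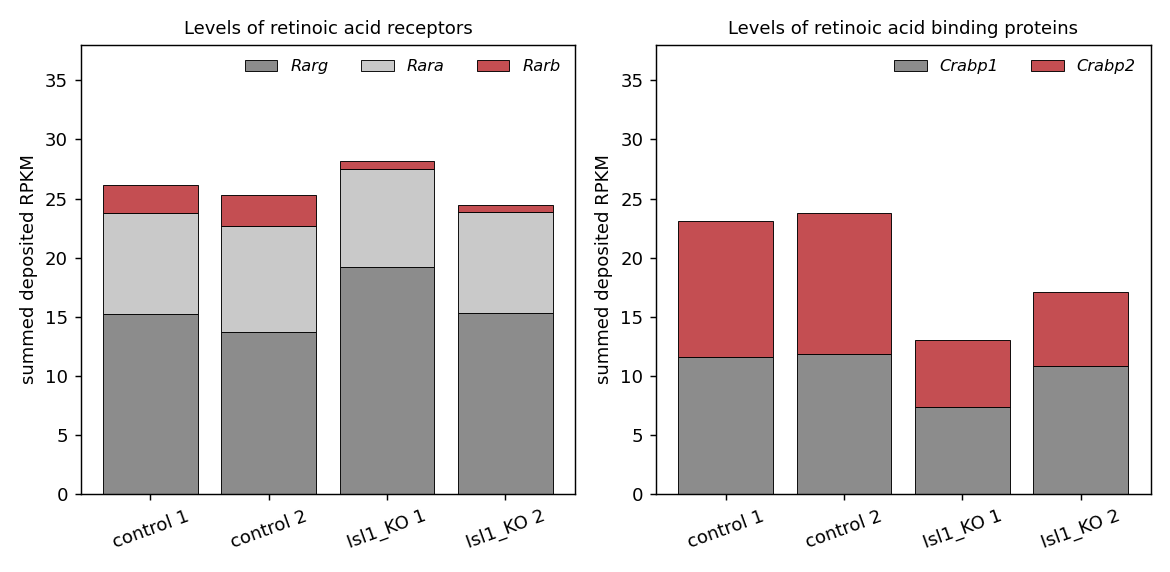
Deposited RPKM stacked by gene in each library, for the retinoic acid receptors (left) and the binding proteins (right), with bars starting at 0. The Rarb part (red, left) narrows from between 2.34 and 2.57 RPKM to between 0.54 and 0.73 RPKM while the total stays between 24.4 and 28.2 RPKM; the Crabp2 part (red, right) narrows from at least 11.5 to at most 6.30 RPKM.

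The strongest change among these genes was that of the receptor Rarb. Rarb (chromosome 14, 17263356 to 17651381, minus strand), whose promoter element is printed above, was counted 111 and 126 times in the control libraries, and 51 and 32 times in Isl1_KO. The level was 12.6 and 13.8 CPM in control and 3.92 and 2.78 CPM in Isl1_KO, or 13.2 ± 0.839 against 3.35 ± 0.809 CPM (SD, n = 2 each). The groups stood far apart. The SD in CPM was similar in both pairs, but in Isl1_KO it was larger relative to the level. The log2 fold change was -1.97 (SE 0.224, 95% interval -2.54 to -1.40, edgeR adjusted p 0.0240), which is 3.91-fold lower. Rarb has 4 RefSeq entries in the table, and with the next of them the log2 fold change was again -1.97 (edgeR adjusted p 0.0200). Over the alternatives that kept all libraries the adjusted p ranged from 1.37e-05 to 0.0292.

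The other receptors did not pass the test. Rara (chromosome 11, 98789132 to 98836256), the receptor that most cells carry, was at 50.9 and 53.5 CPM in control and 49.4 and 49.2 CPM in Isl1_KO. Its log2 fold change was -0.08 (SE 0.0833), and the 95% interval from -0.29 to 0.13 was the narrowest of the 9 genes (edgeR adjusted p 0.595). Rarg (chromosome 15, 102065369 to 102087948), typical of early mesoderm and skeletal precursors, was at 73.4 and 66.1 CPM in control and 92.6 and 71.1 CPM in Isl1_KO. Isl1_KO 2 lay within the control range and Isl1_KO 1 above it, with a log2 fold change of 0.23 (95% interval -0.13 to 0.60, edgeR adjusted p 0.388). On the per-length scale Rarb made up 8.96% and 10.2% of the summed receptor RPKM in control and 2.59% and 2.21% in Isl1_KO. Rarg made up 58.5% and 54.4% in control and 68.2% and 62.8% in Isl1_KO.

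The order of levels changed with these differences. In control, by deposited RPKM, Rarg was highest at 14.5 ± 1.08, followed by Crabp2 at 11.7 ± 0.297, Crabp1 at 11.7 ± 0.198, Cyp26a1 at 10.9 ± 0.841, Rara at 8.73 ± 0.318, Rarb at 2.46 ± 0.163, Dhrs3 at 2.21 ± 0.113, Aldh1a2 at 1.17 ± 0.368 and Aldh1a3 at 1.08 ± 0.141 (SD, n = 2 each). The ranges of Crabp2 and Crabp1 overlapped, as did those of Aldh1a2 and Aldh1a3, and other neighbours in this order did not. In Isl1_KO, Crabp2 at 5.98 ± 0.453 RPKM came after Rara, and Rarb at 0.635 ± 0.134 RPKM came after Dhrs3 and overlapped Aldh1a3. Rarg, Cyp26a1, Crabp1 and Rara were the first 4 in the Isl1_KO order. Rarg overlapped Cyp26a1, Cyp26a1 overlapped Crabp1 and Crabp1 overlapped Rara, so the order of these neighbours is not set by these libraries. Rara lay apart from Crabp2.

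**Figure D4:**
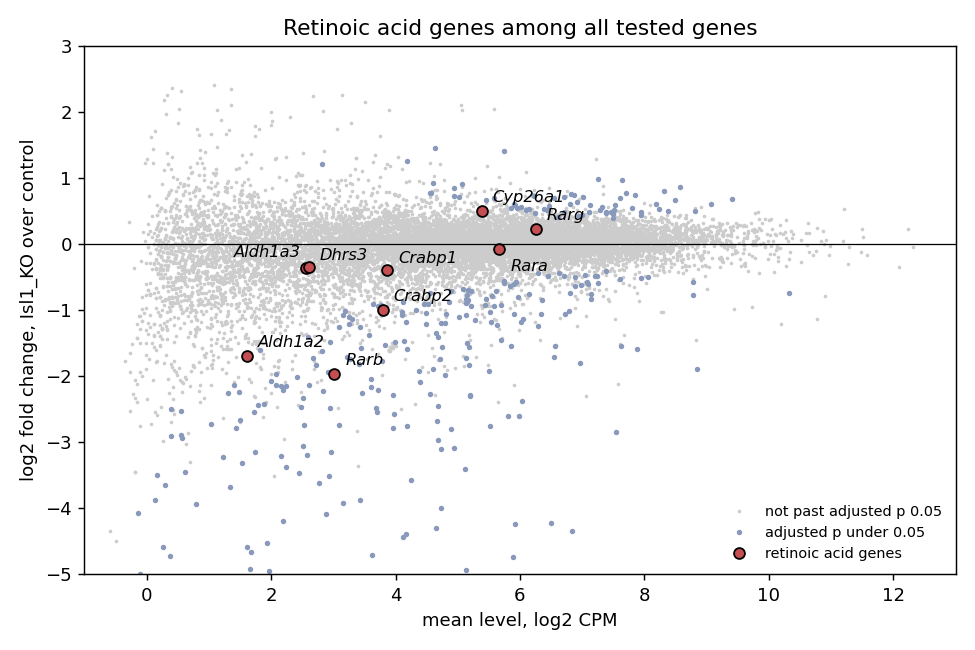
Log2 fold change, Isl1_KO over control, against mean level in log2 CPM for all tested genes (grey, and blue where the adjusted p was under 0.05), with the 9 retinoic acid genes in red; 36 of the 12715 genes lie outside the axes. Rarb and Crabp2 lie among the lower blue points at low to middling levels, and Aldh1a2 lies among grey points at a lower level.

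The calls depended on which library was left out, because the spread is then taken from the other pair. Without control 1 or control 2 the error rests on the Isl1_KO pair, the lone control being assumed to vary like it, and 27 and 29 genes were called in all. Rarb kept log2 fold changes of -2.03 and -1.90 but had adjusted p of 0.281 and 0.290, and Crabp2 kept -1.02 and -0.97 with adjusted p of 0.473 and 0.474. Without Isl1_KO 1 or Isl1_KO 2 the error rests on the control pair, which differed little more than counting error, and 6350 and 4176 genes were called. Rarb, Crabp2 and Aldh1a2 were lower in both of these fits. Aldh1a3 and Dhrs3 were also called lower, and Cyp26a1 higher, without Isl1_KO 1, at -0.74, -0.87 and 0.90. Without Isl1_KO 2, Crabp1 was called lower (-0.66) and Rarg higher (0.41). A single gene with 2 libraries against 2 cannot give an exact two-sided permutation p under 0.333.

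Beyond these genes, a list of 48 other names from the retinoid pathway was examined, of which 47 were in the table and 34 were tested. Meis1 fell, 0 rose and 33 did not pass the test in edgeR, beside 2.45% called over all genes. At an unadjusted p under 0.05 in edgeR, 11 of the 34 passed, 3 of them higher, beside 23.3% of all genes in either direction. In 13 of the 34 both Isl1_KO libraries lay below both control libraries and in 7 above, against 29.0% and 29.1% of all genes. The median log2 fold change of the 34 was -0.11.

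Among genes for uptake and storage, 0 of 5 tested genes passed. Rbp4, the serum carrier of retinol, was at 18.8 and 18.8 CPM in control and 8.38 and 4.08 CPM in Isl1_KO, and the fitted difference was -1.58 on the log2 scale (SE 0.328, edgeR adjusted p 0.0814). In DESeq2 Rbp4 passed (adjusted p 0.00129). Rbp4 and Ttr are made by visceral endoderm, and the endoderm list (Sox17, Foxa2, Afp, Ttr, Cldn6 and Epcam) summed to 193 and 194 CPM in control and 174 and 174 CPM in Isl1_KO with 0 of 6 called. Cldn6 and Epcam made up most of that sum. In the order control 1, control 2, Isl1_KO 1 and Isl1_KO 2, Ttr was at 30.3, 31.1, 31.2 and 8.85 CPM and Afp at 5.56, 7.22, 5.00 and 1.56 CPM, so that both were lowest in Isl1_KO 2, as Rbp4 was. The part of endoderm in the Rbp4 values was not tested. Stra6, the retinol uptake receptor, was near the floor in every library, at 0.461 to 1.20 CPM (edgeR adjusted p 0.385).

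Of the dehydrogenases and reductases, 0 of 8 tested genes passed. Rdh10, which performs the first oxidation of retinol in the embryo, was at 25.8 and 23.9 CPM in control and 19.1 and 14.8 CPM in Isl1_KO. The groups did not overlap, and the log2 fold change was -0.54 (SE 0.161, 95% interval -0.95 to -0.14, edgeR adjusted p 0.141). Rdh11, singled out after its values were seen, stood on the other side, at 39.6 and 38.4 CPM in control and 54.5 and 61.5 CPM in Isl1_KO (log2 fold change 0.57, SE 0.100, edgeR adjusted p 0.0627). Its neighbours on chromosome 12 were also high: the 20 tested genes on each side of it had a median log2 fold change of 0.38, 33 of the 40 were above 0 and 8 were called. For the 10 retinoic acid genes the same median ranged from -0.16 to 0.03.

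Of the partners of these enzymes and receptors, no tested gene passed, which does not show that their levels were equal. Cyp26b1, another degrading enzyme, was at 3.29 and 4.16 CPM in control and 2.77 and 4.34 CPM in Isl1_KO (log2 fold change -0.08, 95% interval -0.88 to 0.73, edgeR adjusted p 0.908). Cyp26c1 had at most 6 counts in a library and was not tested. Of the RXR partners, Rxra was at 43.9 and 47.4 CPM against 47.7 and 45.8 CPM, with a log2 fold change of 0.03 (95% interval -0.20 to 0.27, edgeR adjusted p 0.853). Rxrb was at 41.7 and 36.2 CPM in control and 45.4 and 45.5 CPM in Isl1_KO, with 0.22 (95% interval -0.05 to 0.49, edgeR adjusted p 0.286), and Rxrg had at most 3 counts in a library. The receptors and cofactors together, 8 tested, had 0 calls and a median of -0.04.

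**Figure D5:**
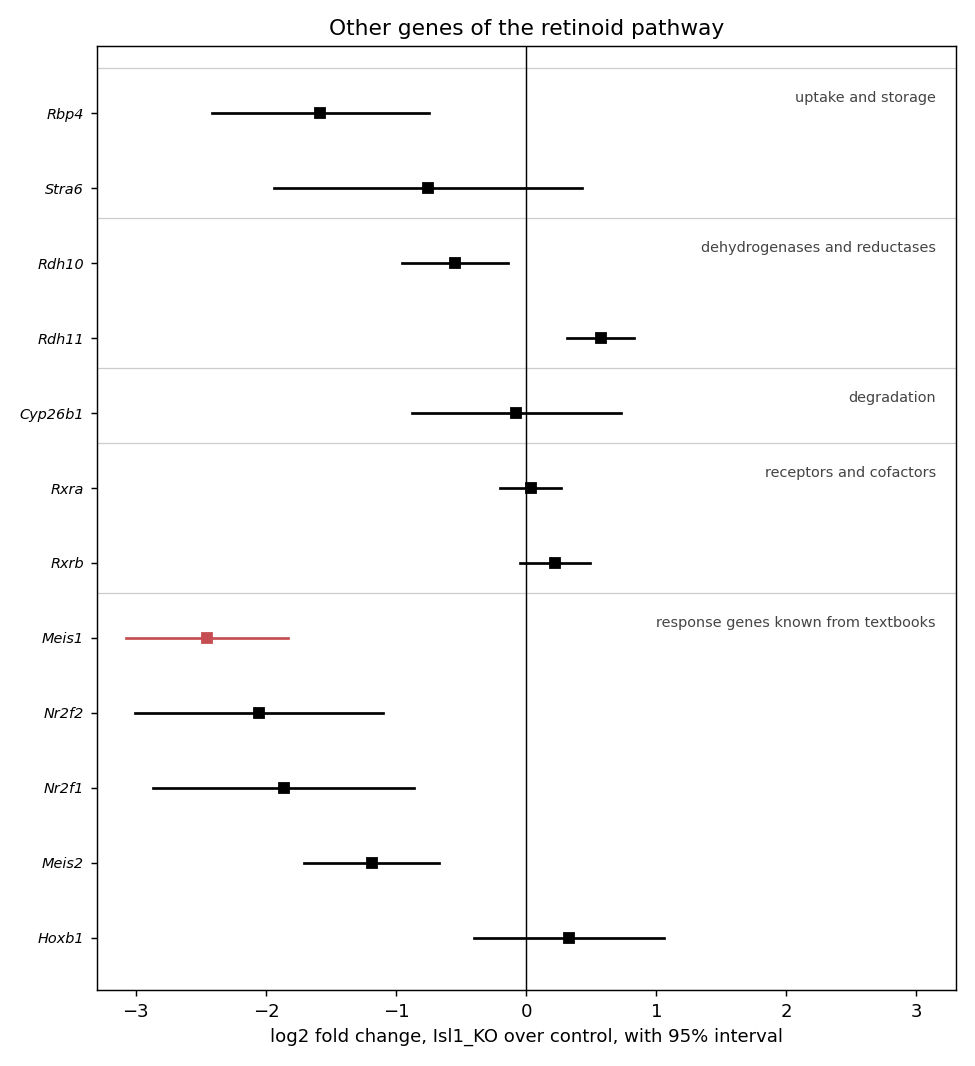
Log2 fold change with unadjusted 95% interval, Isl1_KO over control, of 12 of the 34 tested other genes of the retinoid pathway, grouped by role. All 12 are named in the text, and Ttr and Wt1, also named there, are not shown. Meis1, in red, was called lower. Nr2f2, Nr2f1, Rbp4, Meis2 and Rdh10 also have intervals below 0, and Rdh11 has an interval above 0, and none of these passed after adjustment.

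The genes known from textbooks to respond to retinoic acid were divided. Meis1, a homeobox cofactor gene of posterior progenitors, was at 45.1 and 43.5 CPM in control and 10.1 and 5.90 CPM in Isl1_KO. The fitted difference was -2.45 on the log2 scale (SE 0.246), with an edgeR adjusted p of 0.0173, and of 0.182 and 0.137 without control 1 and control 2, and an exon of it overlaps Gm16140 on the opposite strand. Meis2, a close relative, was at 103 and 107 CPM against 56.0 and 36.2 CPM (-1.19, SE 0.204, edgeR adjusted p 0.0613). The nuclear receptor Nr2f2, a marker of atrial and venous identity, was at 12.3 and 10.9 CPM against 3.84 and 1.65 CPM (-2.06, SE 0.376, edgeR adjusted p 0.0675). Its relative Nr2f1 was at 2.16 and 2.95 CPM against 0.538 and 0.868 CPM (-1.86, SE 0.395, edgeR adjusted p 0.0854), and its exons overlap the opposite-strand lincRNAs A830082K12Rik and Gm8327. For these 4 genes both Isl1_KO libraries lay below both control libraries, a pattern found in 29.0% of all genes. Of the 12 tested genes in this list, 5 lay below in this way and 1 above, so the pattern alone does not mark them out. Meis2 and Nr2f2 passed in DESeq2. Hoxb1, a classical early target that also carries a retinoic acid element, had a log2 fold change of 0.33 (95% interval -0.40 to 1.06, edgeR adjusted p 0.531).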

How the data were processed

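Reads had been mapped by the authors to mm9 with STAR (introns of 20 to 500000 bases), and the deposited counts are exonic reads per RefSeq transcript from HOMER, taken on both strands without adjustment. Deposited RPKM, which the authors computed in edgeR, served here only for levels between genes. The authors' deposited log2 fold changes, p-values, Wald score and normalized mean signal were not used. Of 31507 entries the one with the highest summed count was kept per symbol. Counts were tested with edgeR 4.0.16 in R 4.3.3 (quasi-likelihood F test, TMM, filterByExpr, two-sided, Benjamini-Hochberg over 12715 genes, threshold 0.05), after the step had been tested on simulated data. That simulation gave both groups the same spread, which these libraries did not have. Alternatives used DESeq2 1.42.0 and limma 3.58.1. CPM used effective library sizes. The SE is the fitted fold change over the root of its F statistic, and intervals and floors of 3 counts are unadjusted. Floors cover counting error only. Gene positions come from the GENCODE vM1 annotation (NCBIM37, equal to mm9), and promoter windows are RefSeq on GRCm38.p6. The number of sample columns left unmatched was 0. The members and the lists were chosen with earlier results of these data known. Named were all members, Isl1, a fixed core of 8 other retinoid genes, and listed genes past the adjusted threshold or past an absolute log2 fold change of 0.58 with unadjusted p under 0.05. Some listed genes that this rule names are not reported here. Hoxb1, Rdh11 and Ttr were named after their values were seen.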

Additional observations from a re-analysis of the deposited data

How the results depend on the processing

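Over the alternatives that kept all 4 libraries, Rarb and Crabp2 were called lower in each and no other member was called, except Aldh1a2 (-1.70) with the study's criteria. Of the other retinoid genes, 4 were lower with DESeq2, without a filter, with the replicate block and with limma voom (Rbp4, Meis1, Meis2 and Nr2f2), and 5 with the study's criteria, which added Nr2f1; 1 (Rdh11) was higher with DESeq2, without a filter and with limma voom. All genes called were 454 with the replicate block, 604 with DESeq2, 492 without a filter, 217 with 10 counts in every library and 859 with limma voom, against 311. Libraries with the same replicate number showed no shared deviation (r 0.014 over 12715 genes). The control pair differed little more than counting error (chi-square per degree of freedom 1.13), so this r cannot show whether the replicates were paired. With the replicate block Rarb was at -1.98 and Crabp2 at -0.998, both still called. Leaving out each library gave ranges of -0.12 to -0.045 for Rara, -2.24 to -1.75 for Rarb, 0.030 to 0.41 for Rarg, -1.98 to -1.33 for Aldh1a2, -0.74 to -0.083 for Aldh1a3, -0.059 to 0.90 for Cyp26a1, -0.66 to -0.17 for Crabp1, -1.05 to -0.95 for Crabp2 and -0.87 to 0.018 for Dhrs3. The sign of Cyp26a1 and Dhrs3 turned without Isl1_KO 2. Those fits called 0 to 5 members lower and 0 to 1 higher, and 0 to 12 other retinoid genes lower and 0 to 7 higher. All of these numbers above 0 came from the fits without Isl1_KO 1 or Isl1_KO 2. As given above, those fits called far more genes in all, so the numbers alone do not mark out the retinoid genes. Aldh1a2 rests on 16 to 52 counts a library, and whether depth or spread between clones keeps it from passing was not tested.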
